A study of Mus musculus with 12 samples.

Results

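The genes described here were the 4 kinases that phosphorylate the translation initiation factor eIF2 (Eif2ak1, Eif2ak2, Eif2ak3 and Eif2ak4) and 6 genes of the integrated stress response that acts downstream of them (Atf4, Ddit3, Trib3, Asns, Ppp1r15a and Ppp1r15b). They were selected by name for their roles, 10 genes of the 29838 in the expression table. All 10 passed the filter on low values, which asked for 3 or more libraries with an FPKM of 1 or higher and kept 12994 genes. FPKM is the number of sequenced fragments of a gene divided by the length of its transcript and by how many fragments of that library were mapped, so its levels can be set side by side between genes. RNA was sequenced from wild-type erythroblasts sorted from the bone marrow of male C57BL/6 mice aged 8 weeks. Proerythroblasts (Pro) were the cells with high CD44 and low Ter119 staining. Basophilic (Baso), polychromatic (Poly) and orthochromatic (Ortho) erythroblasts were Ter119 positive and were told apart by their size and CD44. There were 3 libraries per stage, and no stage received a treatment or carried an altered allele.

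Phosphorylation of the alpha subunit of eIF2 lowers general protein synthesis and favours the translation of a few mRNAs, among them Atf4. The transcription factor ATF4 then raises genes for amino acid supply and the stress factors Ddit3 (CHOP) and Trib3, while Ppp1r15a (GADD34) and Ppp1r15b (CReP) carry protein phosphatase 1 to eIF2 and reverse the phosphorylation. In erythroid cells the kinase HRI, encoded by Eif2ak1, is held inactive by heme and is known for matching globin synthesis to the supply of heme. Much of this control acts on translation and on phosphorylation, which RNA levels do not measure.

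The labels did not say whether the 3 libraries of a stage came from separate animals, so the p-values measure the spread between these libraries. The sorted identity was checked on 11 erythroid markers, of which all 11 were at an FPKM of at least 1 in every stage. From Pro to Ortho, Hbb-bs (beta globin) rose by 3.15, Hba-a1 (alpha globin) by 2.89 and Alas2 (the first enzyme of heme synthesis) by 2.74 on the log2 scale, while Klf1, Gata1 and Epor, the early regulators and the erythropoietin receptor, fell by 2.19, 2.04 and 1.66. Hemoglobin genes took 6.98 to 10.7% of the summed FPKM in the Pro libraries, 33.2 to 36.7% in Baso, 34.8 to 37.6% in Poly and 47.2 to 52.6% in those of Ortho. The sort removed CD45, CD11b and GR1 positive cells, yet all 12 neutrophil markers were detected at every stage. Their summed FPKM was 7663 to 9343 in the Pro libraries, 12853 to 15134 in Baso, 16605 to 19812 in Poly and 14793 to 18502 in those of Ortho, with S100a9 and S100a8 the most abundant. Ortho against Pro, 5 of 12 neutrophil, 9 of 12 B cell, 3 of 5 macrophage and 1 of 5 T and NK cell markers tested were called higher, and 5 of 9 megakaryocyte and platelet markers lower. Among all genes tested, 6.33% were called higher and 23.8% lower in that comparison. The most abundant of each list, whether called or not, were Ighm and Cd74, Lyz2 and Cd68, Nkg7 and Lck, and Itga2b and Pf4. Of these last 4, only Pf4 was called. The macrophage marker Marco was at 0 in 11 libraries, and Cd3e, which defines T cells, was at 0 in all Pro and Ortho libraries. These genes alone do not show that such cells were absent. A mean of at least 1 FPKM was reached by 5 of 11 macrophage markers at every stage. Of 11 T and NK cell markers, 3 reached that level in Pro and 4 in Ortho. The part of these other cells in the results below was not tested.

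Eif2ak1 was by far the most abundant of the 4 kinase genes at every stage. Its FPKM was 59.5, 63.5 and 54.5 in the 3 Pro libraries, 132, 111 and 114 in Baso, 105, 94.9 and 96.0 in Poly and 136, 124 and 128 in those of Ortho. No Pro library reached the level of any later library, and the Poly libraries lay below both Baso and Ortho, whereas the Baso and Ortho libraries overlapped. Stage means were thus ordered Ortho (129 ± 6.37, SD, n = 3), Baso (119 ± 11.3), Poly (98.5 ± 5.39) and Pro (59.2 ± 4.55). Relative to all genes tested, Eif2ak1 stood above 89.3% of them in Pro and above 96.9% in Ortho.

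**Figure D1:**
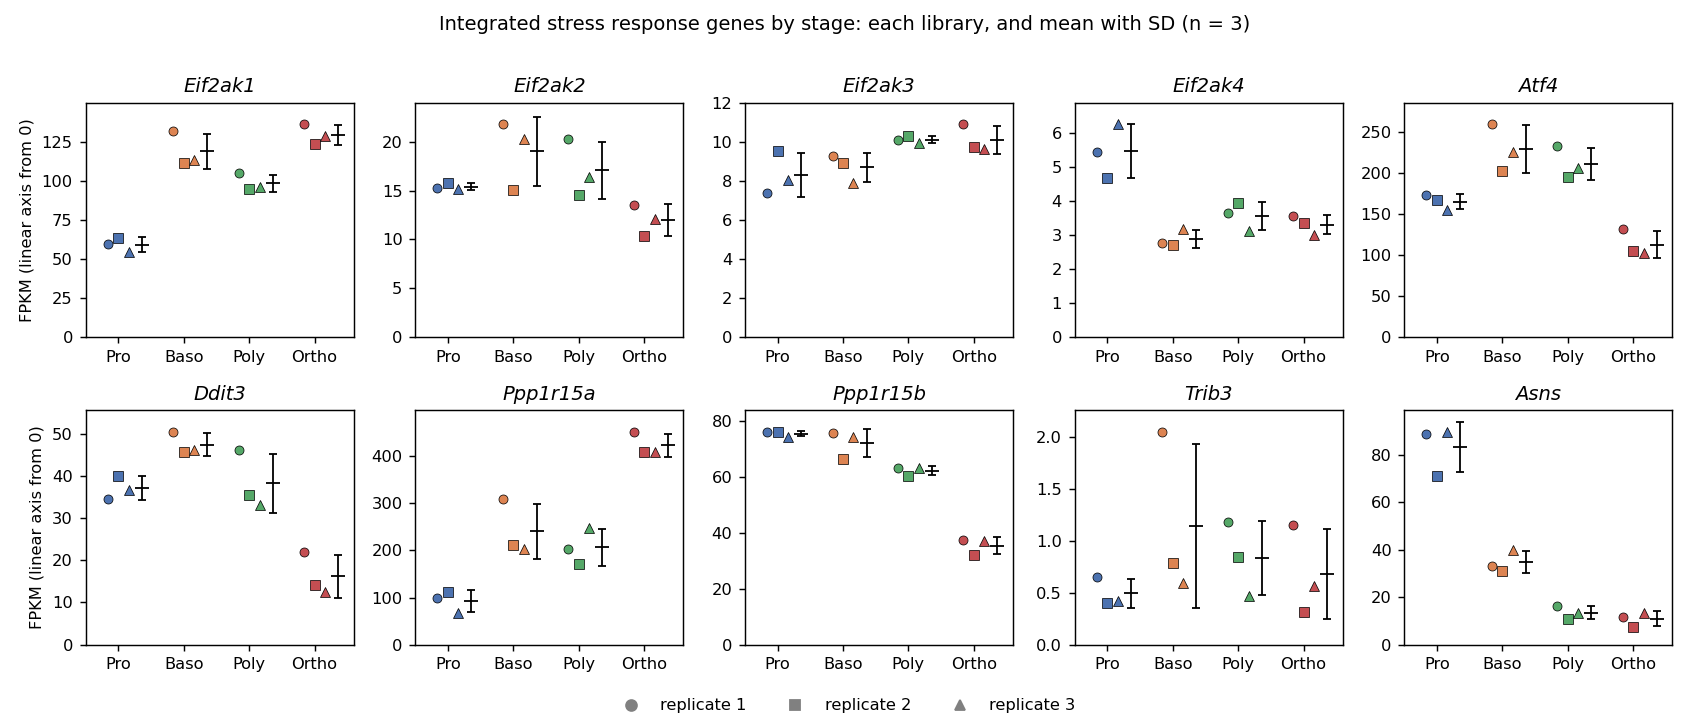
FPKM (vertical axes, linear from 0) of the 10 genes in each of the 12 libraries by stage, with replicates 1, 2 and 3 as circles, squares and triangles, and the stage mean with its SD (n = 3) as a bar with whiskers. Eif2ak1 and Ppp1r15a were lowest in Pro and highest in Ortho, Asns stepped down from a mean of 83.2 in Pro to 10.9 in Ortho, and Atf4 and Ddit3 were highest in Baso and lowest in Ortho.

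A gene was called when its adjusted p in limma was under 0.05 and its absolute log2 fold change on log2(FPKM + 1) was at least 1. Eif2ak1 rose by 1.12 ± 0.0853 (SE) on this scale from Pro to Ortho (adjusted p = 3.47e-07). Its log2 fold change from Pro to Baso was 0.99 (95% interval 0.81 to 1.18, adjusted p = 4.33e-06), just under the fold threshold, and from Pro to Poly it was 0.73 (adjusted p = 2.03e-05). Between Poly and Ortho the difference was 0.39 (adjusted p = 0.00453), and between Baso and Poly it was -0.27, which missed the threshold (adjusted p = 0.0633). In bulk libraries, fewer cells of a type and less RNA per cell cannot be told apart. Eif2ak1 lies on mm10 at chr5:143817788-143904251 on the plus strand, and 487 of its 5670 exon bases are shared with the antisense gene Aimp2 and 172 with the antisense gene Ankrd61. The mean FPKM of Aimp2 went from 23.9 in Pro to 8.61 in Ortho, and that of Ankrd61 from 1.78 to 5.27. Whether the counting used the strand was not given in the sources used here, so reads from the shared bases cannot be told apart.

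Across all genes the background was uneven. From Pro to Ortho, 6.33% of the genes tested were called higher and 23.8% lower, and the median log2 fold change was -0.42. The shares from Pro to Baso were 1.82% higher and 8.54% lower (median -0.23), and from Pro to Poly 3.59% higher and 12.8% lower (median -0.20). Between Baso and Poly only 0.0616% were called higher and 0.454% lower in Poly, and between Poly and Ortho 1.05% were higher and 4.81% lower in Ortho. Of the 10 stress response genes, 1 was called higher and 1 lower from Pro to Baso, and again 1 and 1 from Pro to Poly. Ortho against Pro, 2 were higher and 3 lower. From Baso to Poly limma called none higher (also 0 at an unadjusted p under 0.05) and 1 lower, and from Poly to Ortho 1 was higher and 1 lower. These 5 comparisons share stages and are not independent of each other.

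**Figure D2:**
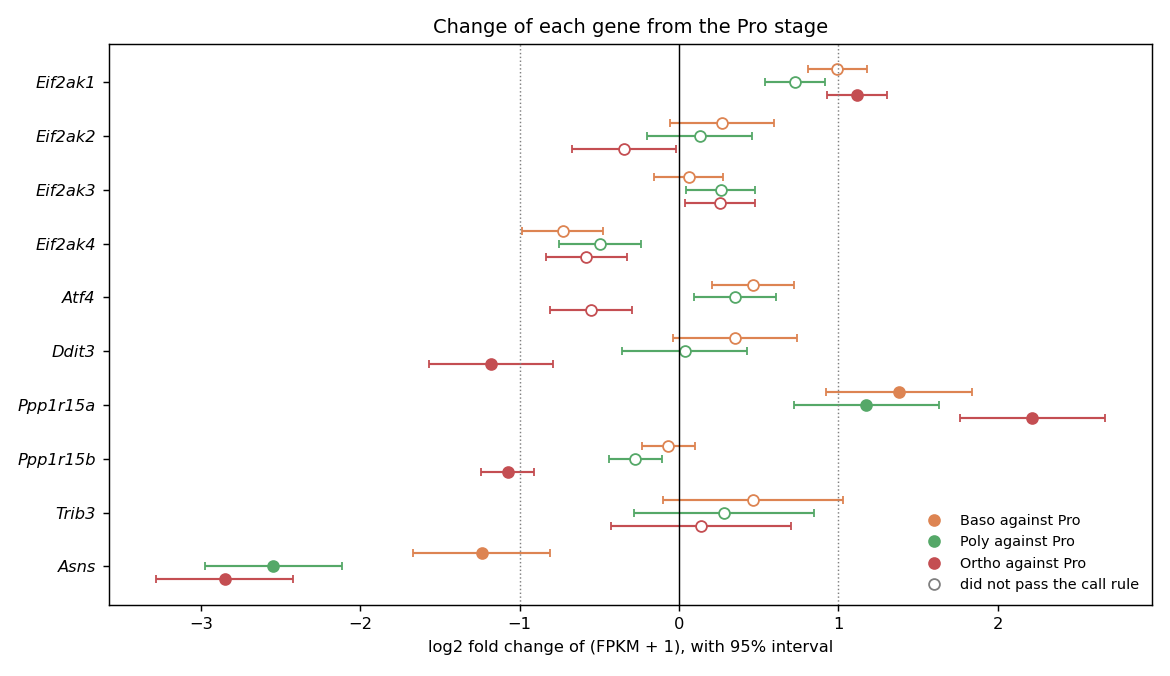
Log2 fold change of (FPKM + 1) from Pro to Baso, Poly and Ortho (horizontal axis) for each of the 10 genes, with 95% intervals from limma. Filled points passed the call rule and open points did not, and dotted lines mark the fold threshold. Filled points are the 3 of Ppp1r15a, all on the higher side, the 3 of Asns, all on the lower side, and the Ortho points of Eif2ak1, Ddit3 and Ppp1r15b.

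The split between higher and lower calls depended on the scaling of the libraries. From Pro to Ortho, 823 genes were called higher and 3092 lower on the FPKM as deposited. The numbers were 1991 and 1153 when hemoglobin genes were left out and the rest rescaled, 2078 and 1293 when each library was centred on its median, and 321 and 4857 when each library was rescaled to the same sum. From Pro to Poly, 467 and 1663 became 1323 and 742, 1220 and 925, and 283 and 2417 in the same order. From Pro to Baso, 237 and 1110 became 488 and 421 without hemoglobin and 554 and 409 with centring, and from Poly to Ortho 137 and 625 became 188 and 469, and 196 and 437. The median of all genes from Pro to Ortho moved from -0.42 to -0.028 with either of these and to -0.72 with equal sums.

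The 4 scalings gave Eif2ak1 a log2 fold change from Pro to Ortho of 1.12 as deposited, 1.61 without hemoglobin, 1.52 with centring and 0.75 with equal sums. The last of these kept an adjusted p of 1.98e-05 and lay under the fold threshold. The difference from the median of all genes was positive under each of them. The Eif2ak1 value of 0.99 from Pro to Baso became 1.31 without hemoglobin and 1.29 with centring, both past the call rule, and 0.82 with equal sums (adjusted p = 2.42e-05). It also passed with a pseudocount of 0.1 (1.01) and without Pro replicate 1 or 2 or Baso replicate 2 or 3 (1.0004, 1.05, 1.04 and 1.03). From Pro to Poly, Eif2ak1 had 1.07 without hemoglobin (adjusted p = 2.34e-06), which passed the call rule, 0.98 with centring and 0.55 with equal sums.

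The remaining kinases were less abundant, and none passed the call rule in any of the 5 comparisons on the FPKM as deposited. Eif2ak2 encodes PKR, which binds double-stranded RNA and is induced by interferon. Its FPKM was 15.3, 15.8 and 15.1 in the Pro libraries, 21.8, 15.0 and 20.3 in Baso, 20.3, 14.6 and 16.4 in Poly and 13.6, 10.3 and 12.1 in those of Ortho. The Ortho libraries lay below all others, and the other stages overlapped. The log2 fold change from Pro to Ortho was -0.34 (95% interval -0.67 to -0.016, adjusted p = 0.054), turning to 0.12 without hemoglobin and to 0.053 with centring, and that from Poly to Ortho was -0.47 (adjusted p = 0.0358).

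Eif2ak3 encodes PERK, the kinase that senses misfolded protein in the endoplasmic reticulum. Its FPKM was 7.38, 9.57 and 8.06 in the Pro libraries, 9.29, 8.93 and 7.90 in Baso, 10.1, 10.3 and 9.97 in Poly and 10.9, 9.77 and 9.63 in those of Ortho. Every Poly and Ortho library lay above every Pro and Baso library, Pro overlapped with Baso, and Poly with Ortho. The size of the difference was small. From Pro to Poly and from Pro to Ortho the log2 fold change was 0.26 in both (adjusted p = 0.0369 and 0.0349), and for Ortho it was 0.70 without hemoglobin, 0.65 with centring and -0.077 with equal sums, so its direction was set by the scaling. The gene shares 485 exon bases with the antisense gene Gm43292, whose stage means lay between 0.207 and 0.283 FPKM.

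Eif2ak4 encodes GCN2, which senses uncharged tRNA when amino acids are scarce. It was the least abundant of the 4 kinases, at 5.46, 4.68 and 6.27 FPKM in the Pro libraries, 2.77, 2.70 and 3.18 in Baso, 3.64, 3.94 and 3.13 in Poly and 3.55, 3.36 and 3.0 in those of Ortho. All 9 later libraries lay below the Pro libraries and overlapped with each other. The mean in Baso was 2.88 ± 0.257 against 5.47 ± 0.797 in Pro, a log2 fold change of -0.73 (95% interval -0.99 to -0.47, adjusted p = 0.000281), and in Poly and Ortho it was -0.50 (adjusted p = 0.00282) and -0.58 (adjusted p = 0.000765), all under the fold threshold. Without hemoglobin the Eif2ak4 values in Poly and Ortho were -0.21 (adjusted p = 0.119) and -0.18 (adjusted p = 0.165), and with centring -0.25 (adjusted p = 0.0672) and -0.18 (adjusted p = 0.156). With equal sums they were -0.65 and -0.88. A share of 43.1% of the genes tested had a lower log2 fold change than Eif2ak4 from Pro to Ortho, so its position there was near the middle of all genes.

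Within a library the share of Eif2ak1 in the summed FPKM of the 4 kinase genes does not depend on how the library is scaled. The share was 67.9, 67.9 and 64.9% in the Pro libraries, 79.6, 80.7 and 78.4% in Baso, 75.5, 76.7 and 76.5% in Poly and 82.9, 84.1 and 83.8% in those of Ortho. No library of one stage overlapped with those of another, and the order of the stage means was Ortho (83.6 ± 0.604, SD, n = 3), Baso (79.6 ± 1.16), Poly (76.2 ± 0.655) and Pro (66.9 ± 1.75). An exact permutation test of the spread between the stages over all 15400 divisions of the 12 libraries gave p = 6.49e-05, the smallest it can give (adjusted p = 0.000195 over the 3 ratios tested; the test has no direction).

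**Figure D3:**
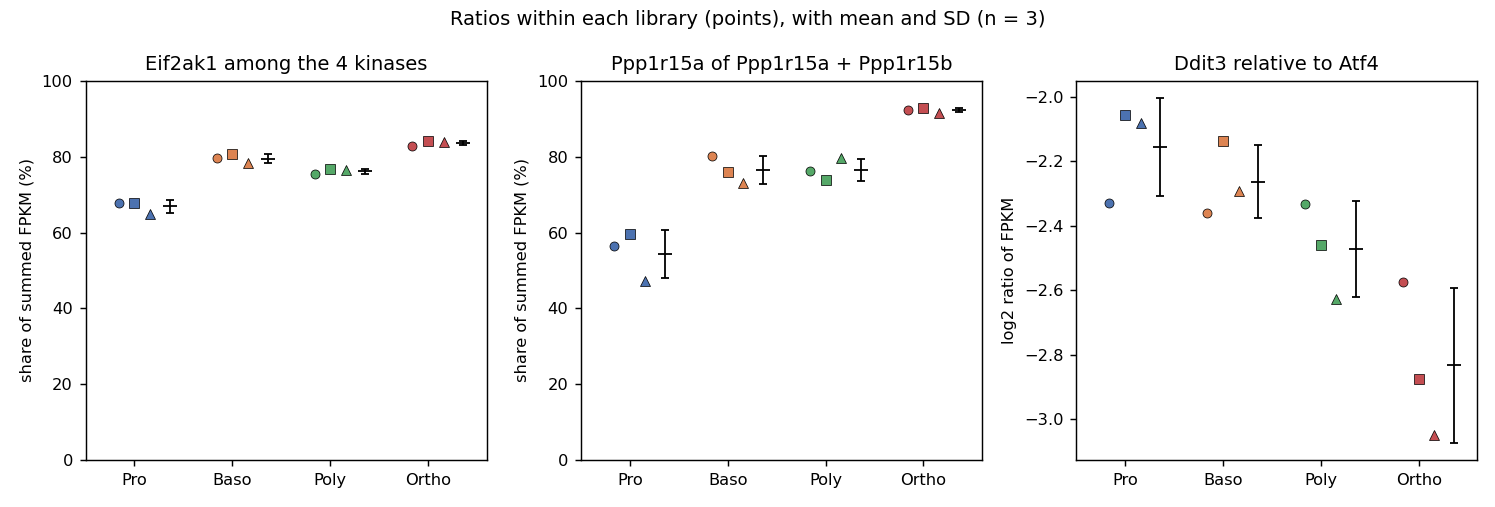
Values in each library by stage (replicates 1, 2 and 3 as circles, squares and triangles) of the percentage of Eif2ak1 in the FPKM of the 4 kinases, the percentage of Ppp1r15a in the FPKM of Ppp1r15a and Ppp1r15b, and the log2 ratio of Ddit3 to Atf4, with the mean and SD (n = 3). The first share ran from a mean of 66.9% in Pro to 83.6% in Ortho, the second from 54.3 to 92.3%, and the log2 ratio from -2.16 to -2.83.

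Both genes for the regulatory subunits that direct protein phosphatase 1 to eIF2 changed from Pro to Ortho, in opposite directions. Ppp1r15a, the inducible subunit GADD34, stood at 98.5, 112 and 66.3 FPKM in the Pro libraries, 309, 211 and 203 in Baso, 203, 170 and 248 in Poly and 453, 409 and 409 in those of Ortho. Every later library lay above every Pro library and every Ortho library above all others, with Baso and Poly overlapping. The mean in Ortho, 424 ± 25.2, was above that of 99.2% of the genes tested. Ppp1r15a rose from Pro by 1.38 ± 0.208 (SE, adjusted p = 0.000183) in Baso, 1.18 (adjusted p = 0.000422) in Poly and 2.22 (adjusted p = 1.81e-06) in Ortho on the log2 scale, and by 1.04 from Poly to Ortho (adjusted p = 0.00249). The call from Pro to Poly was lost without Pro replicate 3, the lowest library (0.96, adjusted p = 0.00147), and with equal sums (0.996, adjusted p = 0.00138), just under the fold threshold. The call from Poly to Ortho was lost without Poly replicate 2 (0.91, adjusted p = 0.0136), without Ortho replicate 1 (0.99, adjusted p = 0.0119) and with equal sums (0.85, adjusted p = 0.00756). The rise to Ortho was between 1.85 and 2.71 under the 4 scalings.

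Ppp1r15b, the constitutive subunit CReP, was at 76.1, 76.2 and 74.4 FPKM in the Pro libraries, 75.9, 66.4 and 74.4 in Baso, 63.2, 60.5 and 63.3 in Poly and 37.3, 31.9 and 37.1 in those of Ortho. Pro and Baso overlapped, the Poly libraries lay below both, and the Ortho libraries below all others. It fell by 1.07 from Pro to Ortho on the log2 scale (SE 0.0762, adjusted p = 1.97e-07). In that comparison 21.0% of the genes tested had a lower log2 fold change, and 23.8% were called lower. From Poly to Ortho the log2 fold change of Ppp1r15b was -0.80 (adjusted p = 8.82e-06), and from Pro to Baso it was -0.067 (95% interval -0.23 to 0.10, adjusted p = 0.473). The direction of the difference from Pro to Baso was set by the scaling. Ortho against Pro, the log2 fold change of Ppp1r15b was -0.59 without hemoglobin, -0.68 with centring and -0.997 with a pseudocount of 5, all under the fold threshold with adjusted p of at most 2.39e-05. Ppp1r15b has 640 exon bases shared with the antisense record Gm26616, whose mean FPKM was 5.29 in Pro and 0.866 in Ortho.

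In Pro the transcripts of both subunits were at similar levels, and in Ortho Ppp1r15a made up most of their sum. The share of Ppp1r15a was 56.4, 59.5 and 47.1% in the Pro libraries, 80.3, 76.1 and 73.2% in Baso, 76.3, 73.8 and 79.7% in Poly and 92.4, 92.8 and 91.7% in those of Ortho. The Pro and the Ortho libraries stood apart from all others, and Baso and Poly overlapped (76.5 ± 3.59 and 76.6 ± 2.98). The exact permutation test over the 15400 divisions gave p = 0.000584 (adjusted p = 0.000877).

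Ppp1r15a lies at chr7:45522916-45526268 on the minus strand of mm10 and shares 12 exon bases with the antisense gene Tulp2. Promoter windows from 250 bases before to 50 bases after the start of each gene were taken from RefSeq (GRCm38.p6, the assembly named mm10), in which 9 of the 10 genes were matched, all but Ppp1r15b. They were searched on both strands for 5 short motifs. The cyclic AMP response element TGACGTCA, which ATF and CREB factors bind, was held by 1.79% of the 32851 windows and, among the 9 genes, by Ppp1r15a alone. Its first base lies 12 bases before the start. The stretch is shown because Ppp1r15a had the largest rise of the 10 genes, in lower case with the motif in capitals, 5′ to 3′ on the minus strand (chr7:45526269-45526310).
Ppp1r15a: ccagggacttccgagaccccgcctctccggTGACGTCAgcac

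The ATF4 branch did not move as a block. Atf4 itself was among the most abundant transcripts of the set, at 173, 167 and 155 FPKM in the Pro libraries, 259, 202 and 225 in Baso, 233, 195 and 205 in Poly and 131, 104 and 103 in those of Ortho. The Baso and Poly libraries overlapped and lay above all Pro libraries, and the Ortho libraries lay below all others. None of the 5 comparisons tested reached the fold threshold. Baso against Ortho, the highest and the lowest stage, was not among them, and its ratio of mean FPKM was 2.03. Atf4 had a log2 fold change from Pro of 0.46 in Baso (adjusted p = 0.00554), 0.35 in Poly (adjusted p = 0.0204) and -0.55 in Ortho (adjusted p = 0.00111), and of -0.90 from Poly to Ortho (adjusted p = 0.000106). The last value was -1.09 with equal sums and -1.02 without Ortho replicate 1, which passed the call rule. The value from Pro to Ortho was -0.064 without hemoglobin (adjusted p = 0.638) and -0.16 with centring (adjusted p = 0.224), close to the median of all genes under those scalings, -0.028 in both.

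Ddit3, the stress factor CHOP, followed the same order of stages with a lower end. Its FPKM was 34.4, 40.1 and 36.6 in the Pro libraries, 50.5, 45.8 and 46.1 in Baso, 46.2, 35.4 and 33.2 in Poly and 22.0, 14.2 and 12.4 in those of Ortho. All Baso libraries lay above the Pro libraries, Poly overlapped with both, and all Ortho libraries lay below the rest. Ddit3 fell by 1.18 ± 0.178 (SE) from Pro to Ortho (adjusted p = 8.47e-05) and by 1.22 from Poly to Ortho (adjusted p = 0.000259) on the log2 scale. Baso against Pro, its log2 fold change was 0.35 (95% interval -0.039 to 0.74, adjusted p = 0.112). Ortho against Pro it was -0.71 without hemoglobin and -0.79 with centring, under the fold threshold with adjusted p of 0.00305 and 0.00138. Ddit3 shares 68 exon bases with the antisense gene Mars, whose mean FPKM was 53.1 in Pro and 19.1 in Ortho, and 105 with a further annotated Ddit3 record that had no value of its own.

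The log2 ratio of Ddit3 to Atf4 within a library was -2.33, -2.06 and -2.08 in the Pro libraries, -2.36, -2.14 and -2.29 in Baso, -2.33, -2.46 and -2.63 in Poly and -2.58, -2.88 and -3.05 in those of Ortho. Neighbouring stages overlapped, while the Ortho libraries lay below all Pro and Baso libraries. The stage means went from -2.16 ± 0.152 in Pro over -2.26 ± 0.114 and -2.47 ± 0.149 to -2.83 ± 0.24 in Ortho (SD, n = 3). The exact permutation test gave p = 0.00519 (adjusted p = 0.00519 over the 3 ratios).

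Asns, the asparagine synthetase gene and a classical ATF4 target, had the largest difference of the 10 genes. Its FPKM was 88.9, 71.0 and 89.8 in the Pro libraries, 32.9, 31.2 and 39.9 in Baso, 16.1, 10.9 and 13.4 in Poly and 11.8, 7.44 and 13.4 in those of Ortho. Each step from Pro to Baso and from Baso to Poly separated the libraries completely, and Poly and Ortho overlapped. The mean level in the Pro libraries, 83.2 ± 10.6, was 2.40 times that in Baso, 6.17 times that in Poly and 7.65 times that in Ortho. Asns fell by 1.24 on the log2 scale from Pro to Baso (SE 0.196, adjusted p = 0.000265), by 1.31 from Baso to Poly (adjusted p = 0.00315) and by 2.85 from Pro to Ortho (adjusted p = 1.56e-07), and its log2 fold change from Pro to Poly was -2.55 (adjusted p = 1.07e-06). Only 0.385% of the genes tested had a lower log2 fold change from Pro to Ortho. The difference from Pro to Ortho was between -3.20 and -2.38 under the 4 scalings, and that from Pro to Baso was -0.93 without hemoglobin and -0.94 with centring, under the fold threshold with adjusted p of at most 0.00168. The Asns transcript fell from Pro to Baso while the mean FPKM of Atf4 went from 165 to 229.

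Trib3, a pseudokinase that restrains ATF4 and is itself an ATF4 target, was close to the filter on low values. Its FPKM was 0.65, 0.40 and 0.42 in the Pro libraries, 2.05, 0.78 and 0.59 in Baso, 1.18, 0.84 and 0.47 in Poly and 1.15, 0.31 and 0.56 in those of Ortho. Only replicate 1 of Baso, Poly and Ortho reached 1, which is how the gene passed the filter, and all stages overlapped. Of the 5 comparisons of Trib3 on the FPKM as deposited, none had an adjusted p under 0.146, and the 95% interval of its log2 fold change from Pro to Ortho ran from -0.43 to 0.70. From Pro to Baso, Trib3 had a log2 fold change of 0.76 with centring (adjusted p = 0.0248), under the fold threshold, and of 0.57 without hemoglobin (adjusted p = 0.0925).

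The element bound by ATF4 with C/EBP factors, TGATGNAA, was held by 3.97% of all promoter windows. Of the 9 genes matched, Asns and Trib3 held it, and of 30 other ATF4 target genes matched, 9 did. Both sites are shown because these genes differed so much in level and in change, on the minus strand of each gene and with the motif in capitals. The Asns site begins 23 bases before the start (chr6:7693210-7693262). The Trib3 site, on the opposite strand and so printed as its reverse complement, begins 15 bases after the start (chr2:152344039-152344076). These distances are to the RefSeq starts. GENCODE M21 has the outermost start of Asns at 7693254 and that of Trib3 at 152344032. By those starts the Asns site lies inside the gene and the Trib3 site before it.
Asns: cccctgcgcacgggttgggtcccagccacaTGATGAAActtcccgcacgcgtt
Trib3: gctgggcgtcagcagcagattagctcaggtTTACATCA

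The same windows were searched for the core of the interferon-stimulated response element, GAAANNGAA, held by 8.56% of them. Of the genes described here, Ppp1r15a held it 220 bases before the start and Eif2ak2 held overlapping copies 19 and 25 bases after it, and of 13 interferon-stimulated genes matched, 9 held it. The Eif2ak2 site is given for its place in an interferon-induced kinase (minus strand, chr17:78882540-78882578), with the second copy in capitals and the end of the first overlapping it. AGATAA, the GATA motif, was in 11.2% of windows and in those of Ppp1r15a and Ddit3. The end of the ER stress element, CCACG, was in 32.8% of windows and in those of 4 of the 9 genes, Eif2ak1, Atf4, Asns and Ppp1r15a. A match is a description of these letters and not evidence of binding.
Eif2ak2: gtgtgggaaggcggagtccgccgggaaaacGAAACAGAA

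**Figure D4:**
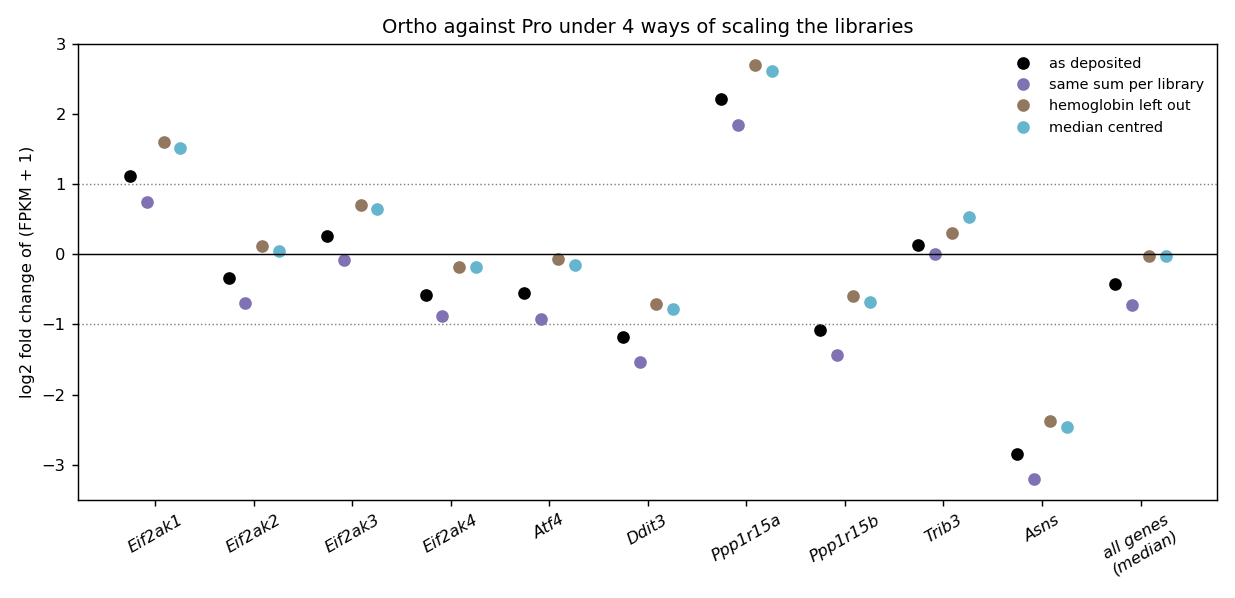
Log2 fold change of (FPKM + 1) from Pro to Ortho (vertical axis) of the 10 genes and of the median of all genes, under the FPKM as deposited, libraries rescaled to the same sum, hemoglobin genes left out, and libraries centred on their median. Asns stayed below -1 and Ppp1r15a above 1 under all 4, while Eif2ak2 and Eif2ak3 changed sign.

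Beyond Asns and Trib3, 25 of 36 further ATF4 target genes were tested. From Pro to Ortho 2 were called higher and 4 lower, where 6.33% and 23.8% of all genes were. Their median log2 fold change was 0.26 against -0.42 for all genes, and 0.51 without hemoglobin, 0.65 with centring and -0.038 with equal sums. Slc1a5, a glutamine transporter, rose by 1.23, and the glycine transporter Slc6a9, which feeds heme synthesis, by 1.04. Slc6a9 had mean FPKM of 39.0 in the Pro libraries, 151 in Baso, 156 in Poly and 76.9 in those of Ortho. Aldh18a1 (proline synthesis) fell by 2.33, Slc7a1 (arginine and lysine uptake) by 1.77, Shmt2 (mitochondrial serine and glycine metabolism) by 1.36, and Eif4ebp1 (a translation repressor) by 1.23. Aldh18a1 had most of its difference between Pro and Baso, with means of 40.1, 11.2, 8.06 and 7.14 FPKM over the 4 stages. From Pro to Baso and from Pro to Poly, 2 of the 25 were higher and 3 lower in each. Of all genes, 1.82% were called higher and 8.54% lower from Pro to Baso, and 3.59% and 12.8% from Pro to Poly. From Baso to Poly limma called none (3 higher and 4 lower at an unadjusted p under 0.05). The shares of all genes there were 0.0616% higher and 0.454% lower. From Poly to Ortho limma called 3 lower and none higher (1 at an unadjusted p under 0.05), where 4.81% and 1.05% of all genes were. Chac1, Atf3 and Cebpb, stress-induced targets chosen for mention after their values were seen, did not pass the call rule. Their mean FPKM was 0.342, 3.70 and 70.6 in Pro and 1.05, 7.12 and 121 in Ortho. The Ortho mean of Atf3 rested on replicate 1, with 15.0, 5.17 and 1.21 FPKM in the 3 libraries.

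**Figure D5:**
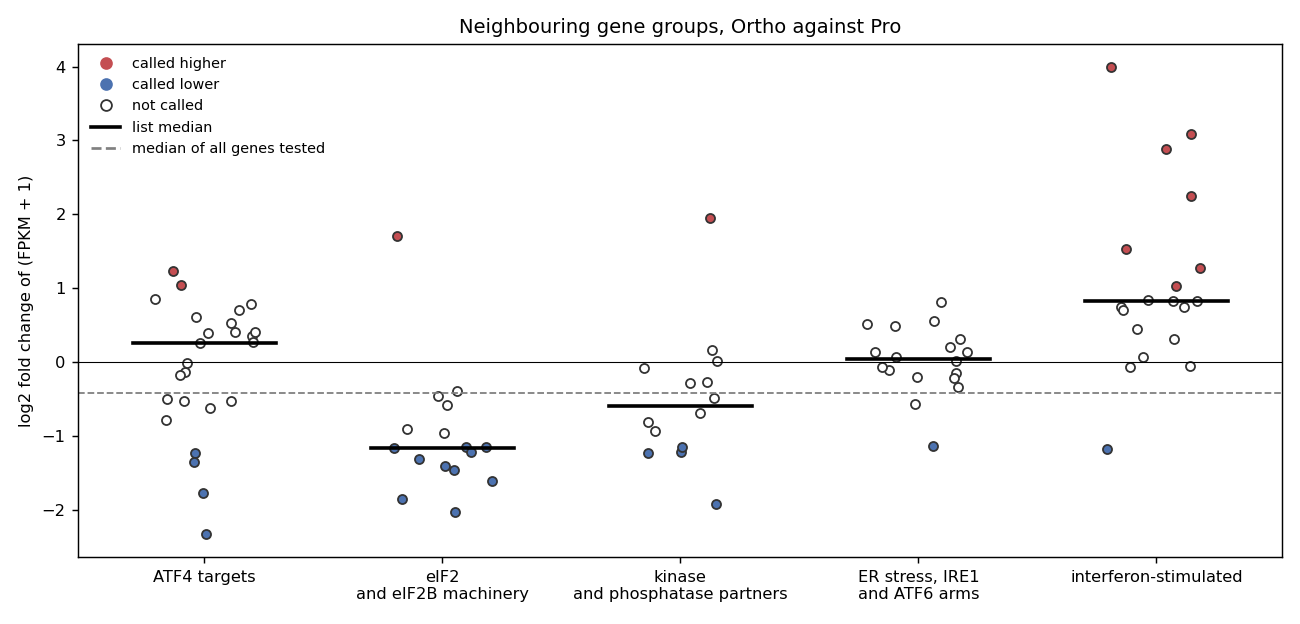
Log2 fold change of (FPKM + 1) from Pro to Ortho (vertical axis) of each tested gene in 5 groups, with called genes filled, the group median as a black bar and the median of all genes tested (-0.42) as a dashed line. Most eIF2 and eIF2B genes lie below the dashed line, with Eif5 far above it, and 7 interferon-stimulated genes are called higher.

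Genes for eIF2 and for initiation factors around it were mostly lower in Ortho. Among them only Eif2s1 encodes the subunit that the kinases phosphorylate. Of 16 genes for eIF2, its exchange factor eIF2B and related initiation factors, 1 was called higher and 10 lower from Pro to Ortho (median -1.16). The shares of all genes were 6.33% and 23.8%. From Pro to Poly 7 were lower and from Pro to Baso 4, where 12.8% and 8.54% of all genes were. Under the other scalings the median from Pro to Ortho stayed negative, between -1.52 and -0.68. Eif2b4, Eif2b3 and Eif2b1, subunits of the exchange factor, fell by 2.03, 1.85 and 1.62. Eif2s1, which encodes the phosphorylated alpha subunit, fell by 1.15 from a mean FPKM of 42.6 to 18.6. Eif5, the GTPase activating protein for eIF2, rose by 1.70 from 145 to 474. For all gene lists, calls and single genes are given on the FPKM as deposited, and only medians under the other scalings. Ddit3 and Ppp1r15b, with falls of 1.18 and 1.07 as deposited, lost their calls without hemoglobin, so list genes with falls of similar size could too.

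Among 14 genes tested for partners of the kinases and phosphatases, 1 was called higher and 4 lower from Pro to Ortho, where 6.33% and 23.8% of all genes were. Their median was -0.59, and -0.14 without hemoglobin, -0.19 with centring and -0.93 with equal sums. Ppp1cb, a catalytic subunit of protein phosphatase 1, rose by 1.95, with means of 35.7, 78.4, 85.2 and 135 FPKM over the 4 stages. The catalytic subunit genes Ppp1ca and Ppp1cc did not pass the call rule, at 311 and 125 FPKM in Pro and 193 and 71.1 in Ortho. The chaperone genes Hsp90aa1, Hsp90ab1 and Hspa8, listed here as partners of HRI, fell by 1.92, 1.21 and 1.16, and Tarbp2, an inhibitor of PKR, by 1.23. Baso against Pro, 1 was higher and 3 lower, where 1.82% and 8.54% of all genes were. From Pro to Poly, 1 was higher and 4 lower, where 3.59% and 12.8% of all genes were. Gcn1l1, the GCN2 activator GCN1, was among the 4 lower in Poly, with means of 22.9 in Pro and 10.8 in Poly.

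The IRE1 and ATF6 arms of the endoplasmic reticulum stress response held few called genes. Of 18 genes tested from Pro to Ortho, limma called 1 lower and none higher (5 higher and 5 lower at an unadjusted p under 0.05). Among all genes, 23.8% were called lower and 6.33% higher in that comparison. It called none from Pro to Baso (2 higher and 5 lower at that unadjusted p), from Pro to Poly (3 and 3), from Baso to Poly (4 and 1) or from Poly to Ortho (3 and 1). The median from Pro to Ortho was 0.039, and it was 0.52 without hemoglobin, 0.44 with centring and -0.32 with equal sums. Manf, a secreted stress protein, fell by 1.14 from a mean of 79.9 to 34.6 FPKM. Hspa5, the chaperone BiP, had means of 198, 160, 109 and 206 over the 4 stages.

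Of 19 interferon-stimulated genes tested, 7 were called higher and 1 lower from Pro to Ortho, where 6.33% and 23.8% of all genes were. Their median was 0.82, and 1.14 without hemoglobin, 1.22 with centring and 0.47 with equal sums. Rsad2 rose by 3.99, Isg15 by 3.09 and Ifit1 by 2.88, and Ifit2 fell by 1.18. Rsad2 went from a mean of 19.8 FPKM in Pro to 101 in Baso and 330 in Ortho. Eif2ak2, the interferon-induced kinase, had means of 15.4 in Pro and 12 in Ortho and did not pass the call rule. From Pro to Baso and from Pro to Poly, 5 of the 19 were higher in each, and from Poly to Ortho 3 were higher. The shares of all genes called higher there were 1.82%, 3.59% and 1.05%.

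Genes with the most similar course to Eif2ak1 over the 12 libraries, by Pearson's r of log2(FPKM + 1), were Gm16793 (0.992), Gm16867 (0.986), Trak2 (0.982) and Ctsb (0.979). For Atf4 they were Kif14 (0.981), Rab6a (0.981), Pqlc1 (0.971), Tmc8 (0.971) and Plekho2 (0.97). For Ddit3 they were Eif1 (0.988), Cd82 (0.978), Cmip (0.969), Cdk17 (0.963) and Dync1li1 (0.958). Eif1, an initiation factor that takes part in start codon selection, had means of 263, 294, 259 and 175 FPKM over the 4 stages. The libraries share their stages and their scaling, so these values are a description.

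Replicate 1 had the highest value of its stage in 8 of the 10 genes in Baso, 6 in Poly and 9 in Ortho, against 2 in Pro. Trib3 and Atf4 were highest in replicate 1 at all 4 stages, and Asns in Poly alone. Of the interferon-stimulated genes named above, Rsad2, Isg15 and Ifit1 were highest in replicate 1 at all 4 stages, Pro included. Isg15 had 47.1, 22.4 and 17.4 FPKM in the Pro libraries. Ifit2 was highest in replicate 3 in Baso. The part of this in the results was not tested.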

How the data were processed

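RNA sequencing of 12 libraries, 3 for each of Pro, Baso, Poly and Ortho, was analysed, and the labels gave each stage and replicate number. Ortho replicates 2 and 3 carry a general erythroblast label and were assigned by their titles. The labels name Trizol and NEBNext Ultra, and the study's methods Geek lysates and KAPA Hyper Prep. Per the submitters' processing notes and the methods, the authors trimmed reads with Cutadapt and Trimmomatic, aligned them to mm10 with HISAT2, counted them with SAMtools and featureCounts, and deposited FPKM per gene. The FPKM tool, annotation and versions were not given in the sources used here.

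FPKM are not counts, so the study's DESeq2 was not repeated. Of 29839 lines, 1 repeated identifier was removed. Among genes under 0.3 FPKM in both libraries, the most frequent ratio to Pro replicate 1 would put the depth of the other libraries at 61.7 to 79.3% of it, but rested on 18 to 34 of 3829 to 4381 genes, so depth is unknown and no counting error is given. FPKM are relative to the rest of a library. Genes were tested with limma 3.58.1 (R 4.3.3) on log2(FPKM + 1) with a variance trend, all 12 libraries in one model, two-sided, with Benjamini-Hochberg adjustment over 12994 genes. In a simulated comparison of Ortho with Pro over 12994 genes, the model recovered 94% of 100 genes changed by 1.5 and 97% of 100 changed by 2 on the log2 scale. The simulated noise was independent between libraries, with no shift of scale between stages and no pairing of replicates. Changes close to the fold threshold of 1 were not simulated, so these shares do not cover such calls. Ratios were tested by exact permutation in Python 3.11.15.

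The genes, lists and tests were chosen with earlier results of these data known. The text names all 10 genes, up to 3 called genes higher and 3 lower of each list from Pro to Ortho, the 2 most abundant markers of each other cell type, and the 5 genes most correlated with Eif2ak1, Atf4 and Ddit3, of which 1 is not reported here. Genes named beyond this were chosen after their values were seen. Positions of genes are from GENCODE M21. Promoter windows and distances to a start are from RefSeq, whose starts can differ from those of GENCODE.

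The deviations of libraries with the same replicate number from their stage means correlated at 0.182 to 0.238 for Baso with Poly, 0.156 to 0.264 for Baso with Ortho and 0.156 to 0.319 for Poly with Ortho, which pairs these stages by their values, with no source in the labels. With Pro the correlations were 0.00524 to 0.0968. The alternatives tried were a pseudocount of 0.1 and of 5, no filter, a mean FPKM of at least 5, the 3 rescalings, no variance trend, only the 2 stages compared, the replicate block, the adjusted p alone, and leaving out each library. A replicate block in a fit without Pro was added after seeing the data.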

Additional observations from a re-analysis of the deposited data

How the results depend on the processing

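The 5 counts of called genes and 3 ratios kept their values to within 1.5 times, or their side of the threshold, in 147 of 156 alternatives. A kept count did not always hold the same genes. From Pro to Baso, Asns lost its call and Eif2ak1 gained one without hemoglobin and with centring. From Poly to Ortho, Ppp1r15a lost its call and Atf4 gained one with equal sums and without Ortho replicate 1. The count from Pro to Poly was 1 with equal sums and that from Pro to Ortho 3 with hemoglobin left out or with centring. With the adjusted p as the only criterion it was 5 from Pro to Baso, 7 from Pro to Poly, 8 from Pro to Ortho and 6 from Poly to Ortho. The share of all genes passing that looser rule is not given here. These larger counts therefore cannot be read as particular to the stress response genes. Leaving out 1 library gave 1 to 2 calls from Pro to Poly (1 without Pro replicate 3) and 1 to 2 from Poly to Ortho (1 without Poly replicate 2). The replicate block left these counts at 2 and 2, and changed no other call. Its exact permutation p was 0.00174, 0.00694 and 0.00868 for the kinase, phosphatase and Ddit3 to Atf4 ratios.

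Of 1110 alternatives for single genes, 23 turned the direction, all of differences that were not called. Ppp1r15b from Pro to Baso had an adjusted p in limma under 0.05 in both directions. Its log2 fold change was -0.24 with equal sums (adjusted p = 0.0407), 0.25 without hemoglobin (adjusted p = 0.016) and 0.23 with centring (adjusted p = 0.017). Among the 23, with equal sums the log2 fold change was -0.10 for Eif2ak3 from Pro to Baso, -0.042 for Eif2ak2 and -0.14 for Ddit3 from Pro to Poly, and -0.077 for Eif2ak3 from Pro to Ortho. Without hemoglobin it was 0.25 and 0.070 for Ppp1r15b from Pro to Baso and Poly, 0.12 for Eif2ak2 from Pro to Ortho, and 0.13 for Eif2ak3 and 0.029 for Eif2ak4 from Poly to Ortho. With centring it was 0.23 for Ppp1r15b from Pro to Baso, 0.053 for Eif2ak2 from Pro to Ortho, and 0.14, 0.066 and 0.0071 for Eif2ak3, Eif2ak4 and Trib3 from Poly to Ortho. Leaving out each library gave -0.015 to 0.15 for Eif2ak3 from Pro to Baso, -0.11 to 0.13 for Ddit3 from Pro to Poly, -0.37 to 0.10 for Trib3 from Baso to Poly, -0.058 to 0.30 for Trib3 from Pro to Ortho, and -0.057 to 0.026 for Eif2ak3 and -0.34 to 0.020 for Trib3 from Poly to Ortho. Apart from what these settings change by construction, the cause was not tested. Depth is unknown, so for Trib3, near 1 FPKM, no limit of detection can be given.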
